A study of Rattus norvegicus with 14 samples.

Results

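Type I and type II interferons act through receptors on the cell surface and the JAK and STAT proteins, and the transcription factors that result switch on a set of interferon-stimulated genes. Some of these encode antiviral effectors that block the entry, translation or release of viruses. Others encode the inducible subunits of the immunoproteasome and the Tap transporter, which cut proteins into peptides and carry them to MHC class I molecules. In skin, keratinocytes, fibroblasts and resident immune cells can express both kinds of gene. Interferon-stimulated and antigen-processing genes were examined here as 31 genes: 18 antiviral effectors, 2 sensors of viral RNA, 4 transcription factors, and 7 proteasome and Tap genes. They were chosen by name, and each was matched to array probes through the rat RefSeq gene table. Of the 31, 30 matched a probe and 28 were measured, against 18611 genes tested and 26903 genes on the array.

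The samples were skin of male CD hairless rats, a strain with little coat, with 1 one-colour Agilent array per animal. In the exposed group, 6 rats received 94 GHz millimetre waves for 3 hours a day on 3 days a week over 5.5 months, and in the sham group 8 rats were treated alike without the field. The arrays lay on 4 slides: slide 2 held 2 exposed animals, slide 3 held 3 exposed and 3 sham animals, slide 4 held 1 exposed and 3 sham animals, and slide 1 held 2 sham animals. Animals are numbered within their group for reference, and the numbers pair no animals. The skin was sampled whole, so less RNA of a gene per cell and fewer cells that express it cannot be told apart.

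Levels are given as the log2 of the background-subtracted signal minus the 75th percentile of the same array, so that 0 stands for a probe at that percentile and 1 unit is a doubling. This percentile lay between 804.5 and 1967 across the arrays, and the lowest belonged to sham animal 6. That animal stood apart across the array: it was the highest of the sham group in 33.5% of all genes tested. Sham animal 8 stood apart in many of the interferon genes. Differences that moved most with 1 of these animals are given without it too. In the exposed group, exposed animal 3 was the highest in 27.4% of all genes tested and the lowest in 4799 of the 18611. Some counts are therefore also given without that animal. A gene counted as measured when at least 6 arrays showed a probe of it well above background, and of 10 keratinocyte markers 6 were measured, Krt5 and Krt14 among them. Among the effectors, Ifit1 was well above background on 0 of 14 arrays and Oasl on 1 exposed and 2 sham arrays, so neither was measured. The RNA sensor listed as Rig1 matched no probe.

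No gene of the 18611 passed an adjusted p of 0.05 between exposed and sham skin in limma with Benjamini-Hochberg adjustment, and 636 genes (3.42%) had an unadjusted p under 0.05, 444 of them lower (2.39%) and 192 higher (1.03%) in exposed skin. Of the 28 measured members, 1 had an unadjusted p under 0.05, Bst2, which was lower in exposed skin. The median difference over the members was -0.07, against -0.02 over all genes, and 21 of the 28 were lower in exposed skin against 57.0% of all genes. Without sham animal 8, 14 of the 28 were lower against 57.4% of all genes, and the median was 0.007. Within slide 3, 12 of the 28 were lower against 55.6% of all genes, and the median was 0.02. For 21 of the 28 the 95% interval of the difference lay within 1.5-fold either way, as it did for 80.3% of all genes. It lay within 2-fold for 27 of the 28, the exception being Oas1a. The count of members at an unadjusted p under 0.05 was 0 without sham animal 8 (all genes 3.36%) and 0 with slide as a block (3.14%). It was also 0 in slide 3 (2.77%) and in slide 4 (1.59%) taken alone. It was 2 without exposed animal 3 (Bst2 and Ifitm3, all genes 5.32%) and 3 with arrays weighted by their quality (Irf1, Stat2 and Tap2, all genes 12.7%). In 0 of the 28 did exposed and sham animals lie apart without overlap, which happened in 6 of all genes (0.0322%).

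**Figure D1:**
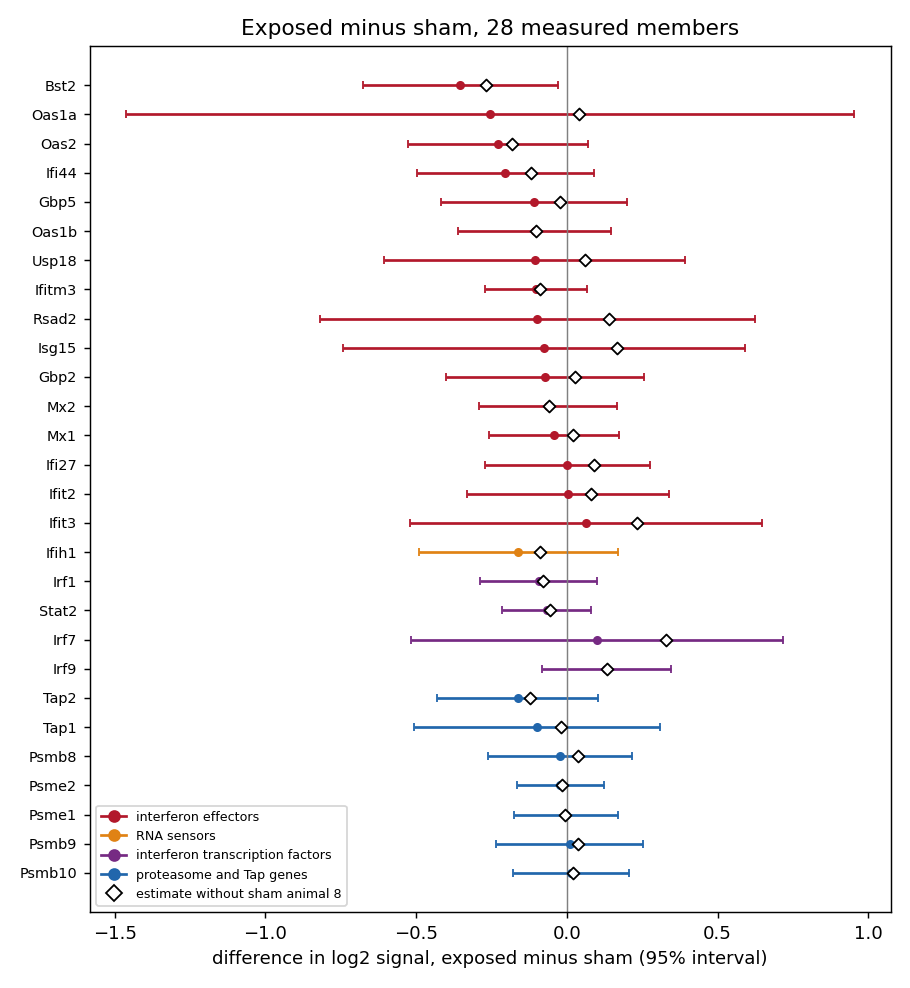
Difference in log2 signal between exposed and sham skin for the 28 measured members, with 95% intervals from limma, coloured by class (6 exposed and 8 sham animals). Open diamonds give the estimate without sham animal 8. The interval of Bst2, from -0.68 to -0.03, ends below 0, and the diamonds of Isg15, Rsad2, Usp18 and Irf7 lie to the right of their filled points.

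The antiviral effectors were lower in exposed skin in 13 of 16 measured genes, with a median difference of -0.10. Within slide 3, the one slide with 3 animals of each group, 5 of 16 were lower and the median was 0.04. Within slide 4, exposed animal 6 stood against sham animals 6, 7 and 8. There 15 of 16 were lower, against 56.8% of all genes, and the median was -0.41, against -0.05 over all genes. Against sham animals 6 and 7 alone, 11 of 16 were lower and the median was -0.18, with 55.9% of all genes lower in that comparison. Over all slides and without sham animal 8, 7 of 16 were lower and the median was 0.02.

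Bst2 encodes tetherin, a membrane protein that holds budding viruses at the cell surface. Its signal in exposed skin was 1.43 at the lowest, 1.77 at the median and 1.88 at the highest, against 1.46, 2.05 and 2.64 in sham skin. The 2 groups overlapped, and the highest value was that of sham animal 8. The means were 1.70 ± 0.19 in exposed skin and 2.06 ± 0.35 in sham skin (SD, n = 6 and n = 8). The difference was -0.35 ± 0.15 (SE), with an unadjusted p of 0.0342 and an adjusted p of 0.9996 in limma. It was -0.25 with slide as a block, where the unadjusted limma p was 0.215, and -0.27 without sham animal 8, where it was 0.0586. Leaving out each animal in turn kept the direction in 14 of 14 fits, and in 6 of the 14 the unadjusted limma p was not under 0.05. 

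Oas2 belongs to the oligoadenylate synthetases, which sense double-stranded RNA and activate an RNA-degrading enzyme. It ran from -5.93 to -5.44 with a median of -5.73 in exposed skin, against -5.91 to -5.04 with a median of -5.52 in sham skin. The groups overlapped, and the difference was -0.23 with an unadjusted limma p of 0.122. It was -0.17 without sham animal 6 and -0.29 without sham animal 5. Without sham animal 5 the unadjusted limma p of Oas2 was under 0.05, as was that of 2.77% of all genes. Ifi44, an interferon-induced cytoplasmic protein, ran from -1.18 to -0.47 with a median of -0.87 in exposed skin. In sham skin it ran from -0.87 to -0.06 with a median of -0.72, and sham animal 8 was the highest of all. Its difference was -0.20 with an unadjusted limma p of 0.160, and it was -0.12 without sham animal 8. Ifitm3, a membrane protein that restricts virus entry, ran from 1.61 to 2.10 with a median of 1.82 in exposed skin, against 1.75 to 2.08 with a median of 1.96 in sham skin. Its groups overlapped almost fully, with a difference of -0.10 and an unadjusted limma p of 0.217.

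The effectors that varied most between animals of a group were Oas1a, Rsad2, Isg15 and Ifit3. Isg15 encodes a ubiquitin-like protein that is attached to other proteins in the interferon response. Its signal was -2.08 at the lowest, -1.74 at the median and -0.77 at the highest in exposed skin, against -1.89, -1.68 and 0.20 in sham skin. The 7 sham animals other than sham animal 8 lay between -1.89 and -1.60, and exposed animals 1, 3 and 5 lay above them at -1.06, -0.77 and -1.57. The difference was -0.07 ± 0.31 (SE) with an unadjusted limma p of 0.815, and without sham animal 8 it was 0.17. Rsad2 encodes viperin, an enzyme that makes a chain-terminating nucleotide against viral polymerases. Its signal ran from -4.29 to -2.97 with a median of -3.76 in exposed skin, against -4.40 to -1.92 with a median of -3.74 in sham skin. As in Isg15, exposed animals 3 and 1 were the highest of their group, at -2.97 and -3.11, and sham animal 8 the highest of all. The difference of Rsad2 was -0.10 ± 0.34 (SE) with an unadjusted limma p of 0.777, and 0.14 without sham animal 8.

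Oas1a, another oligoadenylate synthetase, had the widest interval of the members. Its signal ran from -5.03 to -2.58 with a median of -3.26 in exposed skin, against -5.57 to -1.29 with a median of -3.32 in sham skin. Both groups held animals at both ends, and the difference was -0.25 ± 0.56 (SE) with an unadjusted limma p of 0.659. It was 0.04 without sham animal 8 and -0.57 without sham animal 6. It was well above background in 6 of 6 exposed and 7 of 8 sham animals. Rats carry several near-identical Oas1 genes, and how far the Oas1a probe also reads those copies was not tested. Ifit3, which binds viral RNA together with its relatives, ran from -4.81 to -3.60 with a median of -4.33 in exposed skin, against -5.19 to -3.16 with a median of -4.43 in sham skin. Its difference was 0.06, with an unadjusted limma p of 0.818. It was 0.23 without sham animal 8 and -0.06 without sham animal 6.

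Ifi27, an interferon-inducible membrane protein, ran from 4.67 to 5.23 with a median of 4.78 in exposed skin, against 4.63 to 5.46 with a median of 4.77 in sham skin. Its difference was 0.002, and 0.09 without sham animal 8, which was again the highest. Oas1b ran from 4.02 to 4.39 with a median of 4.21 in exposed skin, against 4.08 to 4.94 with a median of 4.27 in sham skin, and here sham animal 6 was the highest. Its difference was -0.11, and -0.02 without sham animal 6. The other effectors had differences between -0.11 (Gbp5) and 0.004 (Ifit2). They were the guanylate-binding proteins Gbp2 and Gbp5, the dynamin-like GTPases Mx1 and Mx2, the Isg15-removing protease Usp18, and Ifit2. Several of these signs turned with 1 animal. Without sham animal 8, the differences were 0.06 for Usp18, 0.03 for Gbp2, 0.02 for Mx1, -0.02 for Gbp5 and 0.08 for Ifit2. Without sham animal 6, they were -0.21 for Usp18, -0.15 for Gbp2, -0.04 for Ifit2 and 0.004 for Mx2. A second, dimmer probe of Gbp5 had a difference of 0.17, opposite in sign to the -0.11 of the brighter probe, whereas second probes of Usp18 and Irf1 had the sign of the brighter ones.

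**Figure D2:**
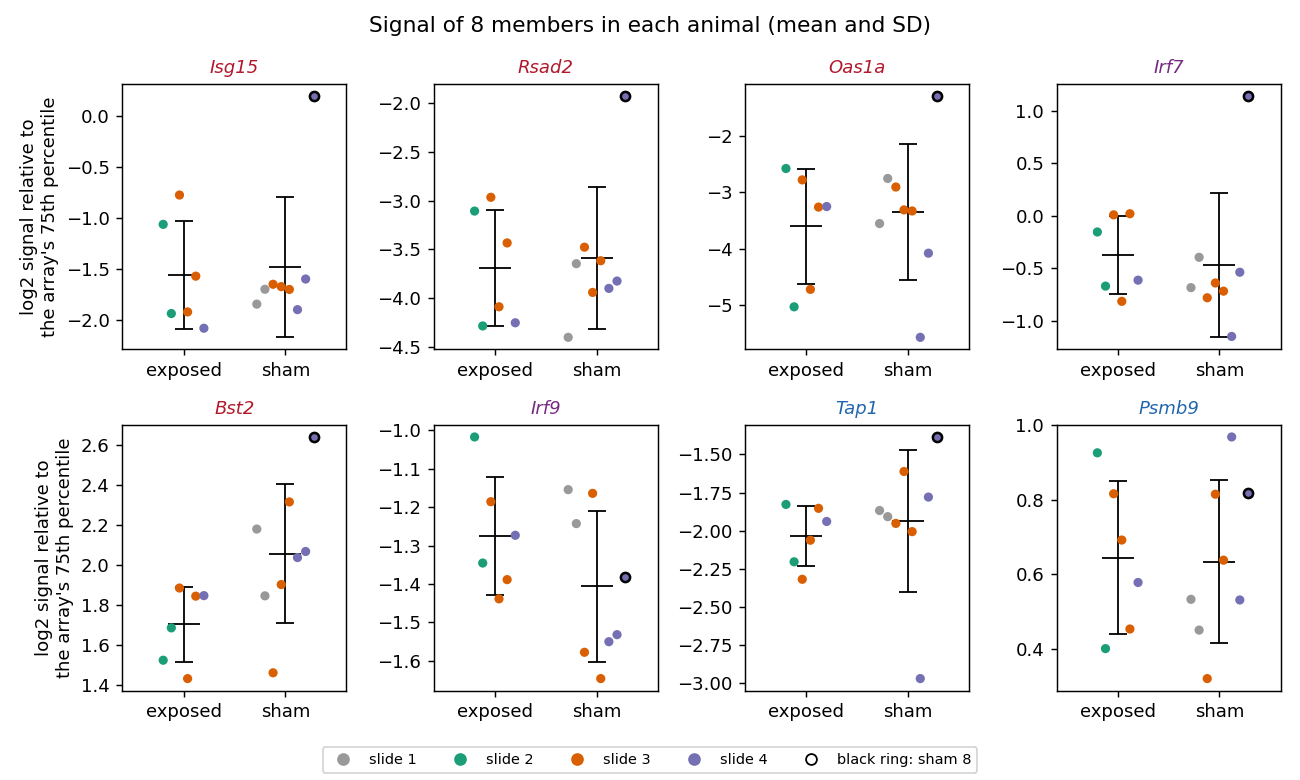
Signal of 8 members in each animal, as log2 relative to the array's 75th percentile, with exposed animals left and sham animals right in each panel, coloured by slide. Bars give mean and SD (n = 6 exposed, n = 8 sham), each panel has its own vertical scale, and sham animal 8 is ringed: it lies at 0.20 in Isg15 and 1.14 in Irf7, above the 13 other animals.

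Ifih1, which encodes the sensor MDA5 of long double-stranded RNA, was the measured sensor. It ran from -4.61 to -3.88 with a median of -4.14 in exposed skin, against -4.56 to -3.50 with a median of -3.95 in sham skin. The groups overlapped and the difference was -0.16 ± 0.15 (SE), with an unadjusted limma p of 0.316. It was -0.09 without sham animal 8 and -0.24 without sham animal 6.

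The transcription factors did not share a direction. Irf9 takes part in the transcription factor complex that type I interferon activates. It ran from -1.44 to -1.02 with a median of -1.31 in exposed skin, against -1.65 to -1.15 with a median of -1.46 in sham skin, and its difference was 0.13 ± 0.10 (SE) with an unadjusted limma p of 0.208. Irf7, the factor that amplifies type I interferon production and is itself interferon-inducible, ran from -0.81 to 0.02 with a median of -0.38 in exposed skin. In sham skin it ran from -1.15 to 1.14 with a median of -0.66. Sham animal 8 held the highest value, and exposed animals 5, 3 and 1 followed at 0.02, 0.01 and -0.15. The difference of Irf7 was 0.10 ± 0.29 (SE) with an unadjusted limma p of 0.735, 0.33 without sham animal 8 and 0.003 without sham animal 6. Irf1, a factor induced mainly by interferon gamma, ran from 0.49 to 0.89 with a median of 0.75 in exposed skin, against 0.57 to 1.08 with a median of 0.87 in sham skin. Its difference was -0.09, and that of Stat2 was -0.07. Stat2 ran from 1.01 to 1.41 with a median of 1.15 in exposed skin, against 1.08 to 1.32 with a median of 1.26 in sham skin.

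Of the 7 proteasome and Tap genes, 5 were lower in exposed skin, the median difference was -0.02, and all 7 had a 95% interval within 1.5-fold either way. Within slide 3 the median was -0.02, within slide 4 it was -0.19, and over all slides without sham animal 8 it was -0.01. Within slide 4 against sham animals 6 and 7 alone it was -0.13. Psmb8, Psmb9, Tap1 and Tap2 lie on chromosome 20 in RefSeq's GRCr8 assembly.

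Tap2 and Tap1 encode the 2 chains of the transporter that carries peptides into the endoplasmic reticulum. Tap2 ran from -0.09 to 0.37 with a median of 0.14 in exposed skin, against -0.23 to 0.59 with a median of 0.40 in sham skin, and its difference was -0.16 ± 0.13 (SE) with an unadjusted limma p of 0.213. Tap1 ran from -2.32 to -1.83 with a median of -2.0 in exposed skin, against -2.97 to -1.39 with a median of -1.89 in sham skin. The sham group held both ends of Tap1, with sham animal 6 the lowest and sham animal 8 the highest. The difference of Tap1 was -0.10 ± 0.19 (SE) with an unadjusted limma p of 0.612. Without sham animal 8 the difference of Tap1 was -0.02. Without sham animal 6 the differences were -0.24 for Tap2 and -0.25 for Tap1, and both then had an unadjusted limma p under 0.05, as did 8.32% of all genes without that animal.

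Psme1 encodes a subunit of the PA28 activator, which opens the proteasome to peptides. It ran from 3.93 to 4.35 with a median of 4.06 in exposed skin, against 3.99 to 4.36 with a median of 4.07 in sham skin. The 2 groups covered nearly the same range, and the difference was -0.002. The other PA28 subunit, Psme2, and the inducible catalytic subunits Psmb8, Psmb9 and Psmb10 had differences between -0.02 and 0.01. The within-group SD of Psme2 was at the 6.42 percentile of all genes tested and that of Psme1 at the 17.04 percentile. The same measure stood at the 98.7 percentile for Oas1a, the 95.2 percentile for Rsad2 and the 93.9 percentile for Isg15.

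Of 12 measured genes of the sensing pathway upstream of interferon, 3 had an unadjusted p under 0.05, and the 3 were lower in exposed skin, as were 2.39% of all genes. None of the 3 passed adjustment. Sting1, the adaptor of cytosolic DNA sensing, had a difference of -0.22 and an unadjusted limma p of 0.00738. Trim25, a ubiquitin ligase that activates RIG-I, had a difference of -0.23 with a p of 0.0181, and the kinase Ikbke had a difference of -0.16 with a p of 0.0325, both unadjusted and from limma. The count was 2 of 12 with slide as a block (Trim25 and Ikbke, all genes 3.14%) and 2 of 12 without sham animal 8 (Sting1 and Trim25, all genes 3.36%). It was 0 of 12 in slide 3 (2.77%) and in slide 4 (1.59%) taken alone, and 3 of 12 with array weights (12.7%) and without sham animal 6 (8.32%). With all 14 animals and without a block, the count was 0 of 22 for further interferon-stimulated genes. It was 0 of 13 for MHC class I and peptide loading genes (rat class I genes are near-identical copies whose probes may read each other). For constitutive proteasome genes it was 0 of 21. For interferons, receptors and signalling it was 0 of the 11 measured, out of 20 listed. The smallest p in these lists belonged to Cmpk2 (-0.15) and Sp110 (-0.11), Tapbp (-0.12) and RT1-T24-4 (-0.23), Psmd1 (-0.09) and Psmb3 (0.07), and Ifna4 (-0.53) and Socs1 (-0.28), each given with its log2 difference. Constitutive proteasome genes were higher in exposed skin in 15 of 21, with a median difference of 0.01. The other 6 were lower, against 57.0% of all genes. Those higher numbered 8 of 21 with slide as a block (median -0.02) and 9 of 21 without exposed animal 3 (-0.03). They numbered 10 of 21 within slide 3 (-0.02) and 10 of 21 within slide 4 (-0.03).

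Markers of other cell types were read beside these genes, with 57.0% of all genes lower in exposed skin. Of macrophage and dendritic cell markers, 11 of 12 measured were lower in exposed skin with a median difference of -0.09 (6 of 12 and 0.008 without exposed animal 3), and the mean of the list ran from -0.70 to 0.42 in exposed animals, against -0.24 to 0.30 in sham animals. Of T and NK cell markers, 10 of 13 measured were lower with a median difference of -0.05. Without exposed animal 5 this was 5 of 13 and 0.01 (all genes 52.2% lower). Without exposed animal 1 it was 13 of 13 and -0.17 (all genes 60.7% lower). The mean of the T and NK cell list ran from -0.39 to 0.38 in exposed animals, against -0.26 to 0.29 in sham animals. Skeletal muscle markers were higher in exposed skin in 11 of 11 measured, with a median difference of 1.36, and the list ran from -1.88 to 4.76 in exposed animals, against -2.64 to 3.47 in sham animals. Hair keratin and root sheath markers were higher in 10 of 10 measured, with a median difference of 0.66 (7 of 10 without exposed animal 3), and ran from -1.83 to 1.87 in exposed animals, against -1.80 to 1.48 in sham animals. Keratinocyte markers were lower in exposed skin in 6 of 6 measured, with a median difference of -0.11, and ran from -0.33 to 0.09 in exposed animals, against -0.44 to 0.39 in sham animals. Fibroblast markers were lower in 7 of 8 measured, with a median difference of -0.14 (5 of 8 and -0.03 without exposed animal 3), and ran from -0.66 to 0.20 in exposed animals, against -0.21 to 0.28 in sham animals. An unadjusted limma p under 0.05 was reached by 1 of the 13 T and NK cell markers, Prf1, with a difference of -0.48. It was also reached by 1 of the 6 keratinocyte markers (Itgb4) and 2 of the 8 fibroblast markers (Pdgfrb and Fbln1). All of these were lower in exposed skin, as were 2.39% of all genes at that threshold. Prf1 reached it with slide as a block and within slide 3, but not with quantile normalization or normexp background correction. Adipocyte markers were higher in 6 of 6 measured (median 0.27), and endothelial markers were lower in 5 of 7 (median -0.05), as were plasmacytoid dendritic cell markers in 5 of 5 (median -0.10), neutrophil markers in 3 of 4 (median -0.04) and the 1 measured marker of B and plasma cells. Their part in the differences of the interferon genes was not tested.

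Animals of the sham group differed among themselves. Sham animal 8 was the highest of all 14 animals in 17 of the 28 members, against 5.31% of all genes tested. It was the highest of the 8 sham animals in 18 of the 28, against 9.04% of all genes. The 17 were 12 of 16 effectors, Ifih1, Irf7, and Psmb8, Tap1 and Tap2 among the 7 proteasome and Tap genes. It exceeded the median of the 7 other sham animals by over 1 log2 unit in 6 of the 28 members, against 1.23% of all genes: Oas1a, Rsad2, Isg15, Irf7, Ifit3 and Usp18. These excesses came to 4.13-fold for Oas1a, 3.74-fold for Rsad2, 3.71-fold for Isg15, 3.55-fold for Irf7, 2.43-fold for Ifit3 and 2.38-fold for Usp18. Among 18609 genes ranked by this excess, Oas1a was at rank 19, Rsad2 at 24, Isg15 at 26 and Irf7 at 30. Dixon's test set sham animal 8 above its group in 6 of the 28, against 0.247% of all genes. This is 1 animal, so the values describe it and no group was tested.

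**Figure D3:**
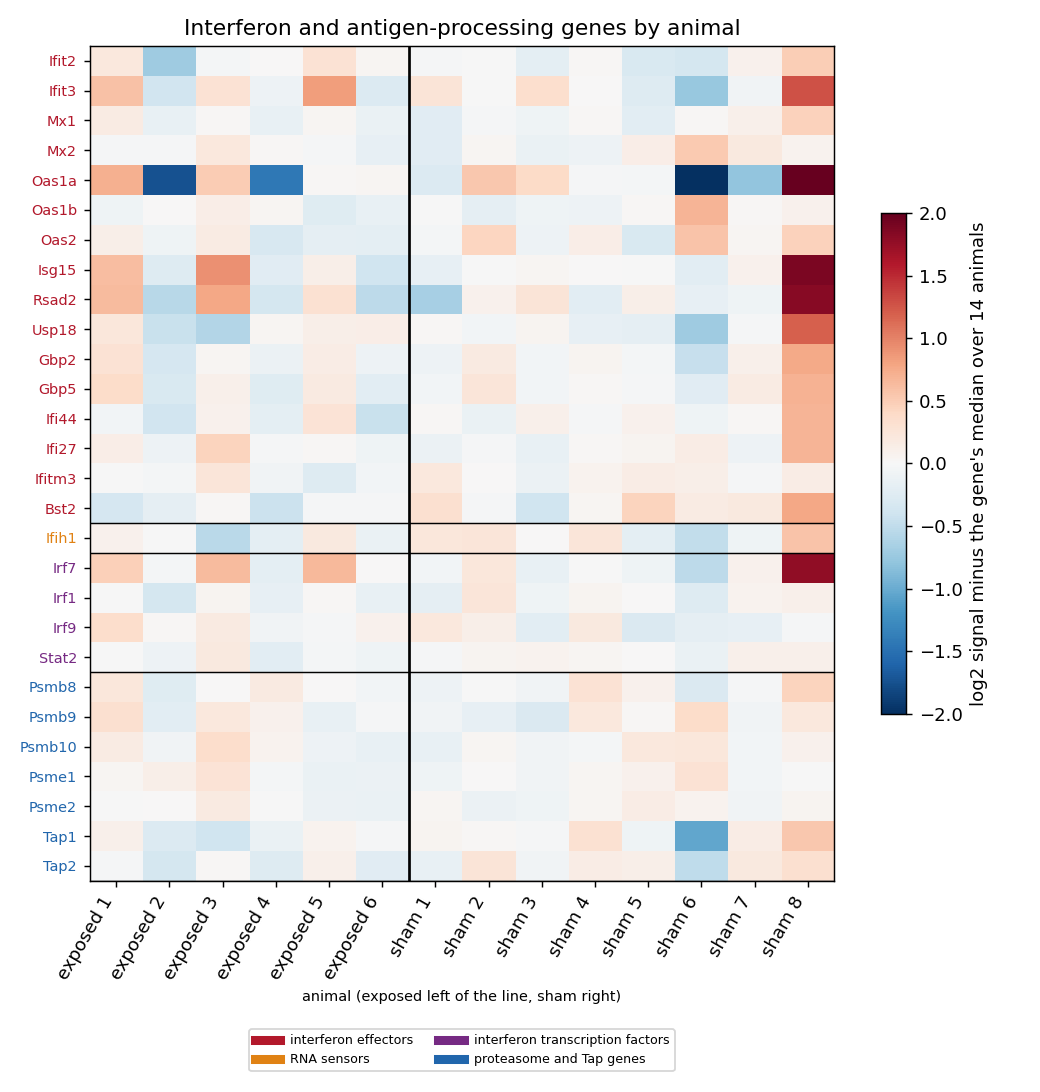
Signal of the 28 measured members in each of the 14 animals, as log2 minus the gene's median over all animals, with exposed animals left of the line and sham animals right of it. Colours saturate at 2 log2 units either way. The column of sham animal 8 is red in most effectors and in Irf7 and pale in Psme1 and Psme2.

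Not every interferon gene shared in it. In sham animal 8, Mx2 was 1.03-fold, Oas1b 1.06-fold and Ifitm3 1.06-fold the median of the other sham animals. Stat2 was 1.05-fold, Irf1 1.07-fold and Irf9 1.11-fold that median. Among the proteasome and Tap genes, Tap1 was 1.44-fold, Psmb8 1.39-fold, Psmb9 1.22-fold and Tap2 1.16-fold. Psmb10 was 1.08-fold, Psme2 1.01-fold and Psme1 0.99-fold. Over the whole classes, the median deviation of sham animal 8 from the other sham animals was 0.69 for the effectors and 0.21 for the proteasome and Tap genes, against -0.003 for all genes.

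The other genes of the pathway were read the same way. Sham animal 8 was the highest of 14 animals in 15 of 22 further interferon-stimulated genes, 6 of 13 MHC class I and peptide loading genes and 4 of 12 sensing genes. It was the highest in 0 of 21 constitutive proteasome genes. For interferons, receptors and signalling it was the highest in 0 of the 11 genes measured, out of 20 listed. Its 75th percentile signal of 1692 lay within the range of the other arrays. The mean of the macrophage and dendritic cell markers was 0.30 in this animal, the second highest of 14. That of the T and NK cell markers was 0.12, at rank 5, and that of the plasmacytoid dendritic cell markers was -0.02, at rank 6. Hair keratin markers stood at 0.75, at rank 6, and skeletal muscle markers at -2.62, at rank 13. On the measure used for the members, the deviation from the median of the other sham animals, hair keratin markers had a median of 1.5 with 10 of 10 over 1 log2 unit, against 0.69 and 5 of 16 for the effectors. Among the 18609 ranked genes Krtap31-1 was at rank 13, Krt85 at 20 and Krt40 at 21, next to Oas1a at 19. Sham animal 8 was the highest of 14 animals in 0 of the 10 hair keratin markers. The muscle markers had a median deviation of -1.10 and the macrophage and dendritic cell markers 0.29. The part of these markers in the excess was not tested.

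**Figure D4:**
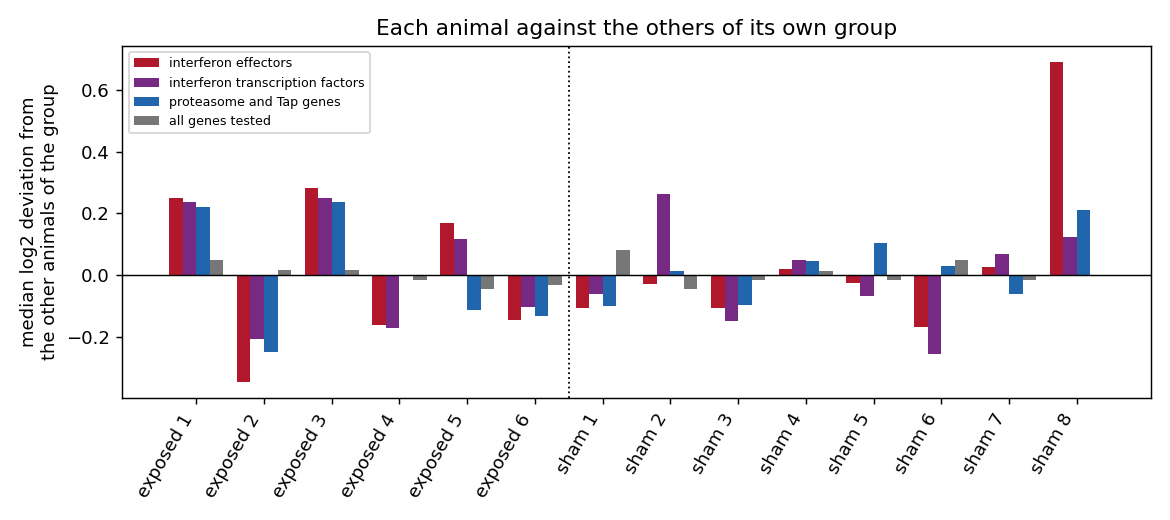
Median deviation of each animal from the other animals of its own group, in log2 units, for the effectors, the transcription factors, the proteasome and Tap genes and all genes tested. The effectors of sham animal 8 stand at 0.69 and those of exposed animal 2 at -0.34.

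The exposed animals also differed among themselves. The mean of the effectors, taken as the deviation from each gene's mean over 14 animals, was 0.19 in exposed animal 1, 0.18 in exposed animal 3 and 0.07 in exposed animal 5. It was -0.19 in exposed animal 6, -0.25 in exposed animal 4 and -0.38 in exposed animal 2. In the sham group the same mean was 0.81 in sham animal 8, and the 7 others lay between -0.22 and 0.04. Slide 3 held exposed animals 3, 4 and 5 and slide 2 exposed animals 1 and 2. Each of these slides held animals above and below 0, and the part of slide was not tested.

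Whether members moved together between animals was examined in 4 pairs, with the group means taken away. Irf7 and Isg15 were correlated at r = 0.923 and rho = 0.807 (n = 14, permutation p = 0.0001 for r and 0.00094 for rho). Adjusted over the 4 pairs, these were 0.0004 and 0.00376. Irf7 and Oas1a were correlated at r = 0.803 and rho = 0.727 (n = 14, permutation p = 0.0003 and 0.0044, adjusted p = 0.0006 and 0.0088). Without sham animal 8, r was 0.735 for Irf7 with Isg15 and 0.765 for Irf7 with Oas1a. Without the 2 animals farthest from the median of Irf7, sham animal 8 and exposed animal 5, r was 0.816 and 0.796, and with slide means taken away it was 0.938 and 0.841. These pairs were picked with earlier results of these data known.

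The other pairs did not pass the permutation test. Irf1 and the immunoproteasome subunit gene Psmb9 had r = 0.06 and rho = 0.05 (n = 14, permutation p = 0.835 and 0.857, adjusted p = 0.835 and 0.857). Psmb9 and its neighbour Tap1 had r = -0.21 and rho = 0.11 (n = 14, permutation p = 0.507 and 0.715, adjusted p = 0.676 and 0.857). Without sham animal 6 and exposed animal 1, the 2 farthest from the median of Psmb9, r was 0.34. With slide means taken away, r was 0.16 for Irf1 with Psmb9 and -0.19 for Psmb9 with Tap1.

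**Figure D5:**
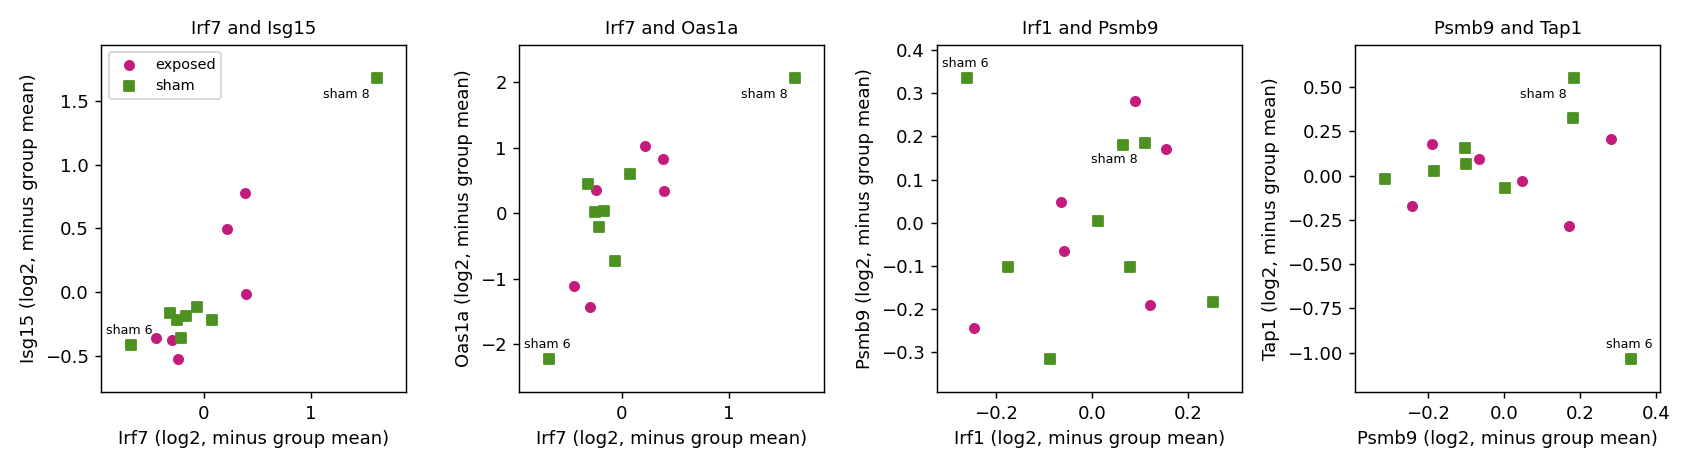
Signal of 4 pairs of members in the 14 animals, each as log2 minus the mean of the animal's group. Irf7 with Isg15 (r = 0.923) and Irf7 with Oas1a (r = 0.803) run along a line with sham animal 8 at its upper end, and sham animal 6 lies away from the other animals in Psmb9 with Tap1 (r = -0.21).

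Over the 120 pairs of effectors the median r was 0.50, and 0.30 without sham animal 8. Over the 21 pairs of proteasome and Tap genes it was 0.16, and 0.12 without sham animal 8. Without sham animals 6 and 8, the medians were 0.35 for the effectors and 0.41 for the proteasome and Tap genes. Between the effectors and all genes tested the median r was -0.01. The pairs share animals and arrays, so these medians are descriptions. Taking the members 1 by 1, Gbp2 and Gbp5 followed Irf7 at r = 0.916 and 0.915 and Rsad2 at r = 0.877, whereas Mx2 stood at -0.05 and Oas1b at -0.23. The last 2 were nearer to Psme1, with r = 0.752 and 0.759. Sham animal 6 held the highest value of all animals in Mx2 (4.51), Oas1b (4.94) and Psme1 (4.36). Sham animal 8 held the highest in Irf7, Gbp2, Gbp5 and Rsad2. The r values of Gbp2, Gbp5, Rsad2, Mx2 and Oas1b were taken with all animals only. How far they rest on a single array was not tested.

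Upstream sequence was read for 4 of the 6 members that exceeded the median of the other sham animals by over 1 log2 unit in sham animal 8. It was also read for the neighbouring pair Tap1 and Psmb9, of which Tap1 was the highest of 14 in that animal, at 1.44-fold. RefSeq's promoter table of GRCr8 held 24 of the 31 members. Isg15 and Usp18, the other members over 1 log2 unit, were not among them. The first motif searched was the core of the interferon-stimulated response element, GAAA then any 2 bases then GAAA, on either strand, which IRF factors bind. It occurred in the 250 bases upstream of the start of 3.41% of 33469 promoters and of 16 of the 24 members, 10 of 12 effectors and 4 of 7 proteasome and Tap genes among them. The second, the gamma-activated site TTCNNNGAA, which reads the same on both strands, occurred in 7.67% of all promoters and in 7 of the 24 members. The 2 motifs overlapped in Bst2. The stretches are given 5′ to 3′ on the strand of the gene, with the bases of each response element core in capitals. They lie at chr1:205800024-205800273 on the minus strand for Irf7, chr6:48788121-48788370 on the minus strand for Rsad2, chr12:41330216-41330465 on the plus strand for Oas1a, and chr1:241527076-241527325 on the plus strand for Ifit3. Tap1 lies at chr20:4668544-4668793 on the minus strand and Psmb9 at chr20:4668750-4668999 on the plus strand.
Irf7: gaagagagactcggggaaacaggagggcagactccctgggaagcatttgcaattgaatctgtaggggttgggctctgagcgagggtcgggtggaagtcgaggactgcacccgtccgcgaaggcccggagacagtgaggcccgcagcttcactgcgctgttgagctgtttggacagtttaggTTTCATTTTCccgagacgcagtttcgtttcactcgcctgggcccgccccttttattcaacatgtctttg
Rsad2: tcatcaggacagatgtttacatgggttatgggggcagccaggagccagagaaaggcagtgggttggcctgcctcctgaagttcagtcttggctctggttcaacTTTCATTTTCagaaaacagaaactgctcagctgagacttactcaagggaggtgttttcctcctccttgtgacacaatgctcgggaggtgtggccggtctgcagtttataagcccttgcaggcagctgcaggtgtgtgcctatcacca
Oas1a: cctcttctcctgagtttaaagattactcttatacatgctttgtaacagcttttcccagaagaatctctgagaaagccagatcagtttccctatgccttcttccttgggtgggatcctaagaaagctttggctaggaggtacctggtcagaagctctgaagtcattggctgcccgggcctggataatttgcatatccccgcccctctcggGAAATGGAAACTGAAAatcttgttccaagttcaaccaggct
Ifit3: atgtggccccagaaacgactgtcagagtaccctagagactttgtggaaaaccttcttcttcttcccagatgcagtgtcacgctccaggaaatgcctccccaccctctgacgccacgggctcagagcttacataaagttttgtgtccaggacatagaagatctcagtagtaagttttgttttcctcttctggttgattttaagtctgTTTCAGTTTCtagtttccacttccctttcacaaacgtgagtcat
Tap1: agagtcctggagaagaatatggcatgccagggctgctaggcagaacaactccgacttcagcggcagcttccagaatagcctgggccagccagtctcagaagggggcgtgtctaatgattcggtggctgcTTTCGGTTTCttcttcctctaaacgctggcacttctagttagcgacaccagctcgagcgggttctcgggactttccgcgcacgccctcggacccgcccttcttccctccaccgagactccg
Psmb9: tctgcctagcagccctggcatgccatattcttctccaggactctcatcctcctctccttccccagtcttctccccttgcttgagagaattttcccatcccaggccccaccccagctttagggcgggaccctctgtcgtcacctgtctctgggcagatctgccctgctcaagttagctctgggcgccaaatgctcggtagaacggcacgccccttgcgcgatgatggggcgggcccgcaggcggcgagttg
In Irf7 the core lay 69 to 60 bases before the start, in Ifit3 44 to 35 and in Rsad2 147 to 138. Oas1a held 2 overlapping cores, at 41 to 32 and 35 to 26 bases. Tap1 held 1 at 121 to 112 bases. Psmb9 held neither motif in this window. Tap1 and Psmb9 run in opposite directions with 456 bases between their starts, and their stretches share sequence at their far ends. The core also stood before Ifitm3, Oas1b, Psme2 and Psmb10, which were at 1.06-fold, 1.06-fold, 1.01-fold and 1.08-fold the median of the other sham animals in sham animal 8. Mx1 and Psmb8 held no core in this window, and sham animal 8 was the highest of 14 in both, each at 1.39-fold. Irf1, Irf9, Stat2, Psmb9 and Psme1 held none either, and that animal was not the highest in them. A match of letters is a description and says nothing of whether a factor was bound.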

How the data were processed

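Per the labels' protocols, total RNA from skin biopsies was labelled with Cy3 and hybridised to 1 array per animal, and rats shared cages in pairs. Cage mates are unknown here, and p-values treat each animal as a separate sample. The deposited scanner files hold background-subtracted spot intensity, made with Agilent Feature Extraction 10.7.3.1 per the file headers. The authors' deposited table holds log2 values, centred by probe, whose columns followed quantile-normalized signals of the same arrays; it served as an alternative. For that table, no normalization step of the authors is named in the labels or headers.

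Control and outlier spots were left out, log2 signals were set to each array's 75th percentile, and probes well above background on at least 6 arrays were kept, 21014 of 30367. Probes were named through RefSeq (GRCr8), 59.3% with a symbol, and each gene took the values of the brightest among its kept probes. The comparison between groups used lmFit and eBayes of limma 3.58.1 (R 4.3.3), with Benjamini-Hochberg adjustment over 18611 genes, two-sided, after testing on simulated data. Correlations used two-sided permutation tests (100000 resamples, SciPy 1.17.1). Named genes were, per class, those with the smallest p, the largest within-group SD and the brightest probe. The members and lists were chosen with earlier results of these data known. The number of arrays limits the precision. Alternatives were quantile normalization, normexp, the authors' table, other filters and probe rules, slide as a block or alone, array weights, a variance trend, and each animal left out.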

Additional observations from a re-analysis of the deposited data

Results flagged for a closer look

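Dixon's test for 1 value apart from its group was made on 62 sets of values, the 28 members and 3 class means in each group, and picked out 11, where chance picks about 1 in 20. These were 1 of 31 sets in the exposed group, where the test set a value apart in 7.83% of all genes, and 10 of 31 in the sham group, where it did so in 24.3% of all genes. The critical values were 0.625 for 6 animals and 0.526 for 8.

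Of the 11, 7 were sham animal 8 above the other sham animals. It stood at 0.20 in Isg15 (others at most -1.60), -1.92 in Rsad2 (at most -3.48), -1.11 in Usp18 (at most -2.25) and -0.055 in Ifi44 (at most -0.64). It stood at 5.46 in Ifi27 (others at most 4.92), 1.14 in Irf7 (at most -0.40) and 0.81 in the mean of the effectors (at most 0.04). By the same test this animal was a high outlier of its group in 46 of all genes (0.247%).

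Sham animal 6 was the highest in Oas1b at 4.94 (other sham animals at most 4.34) and in Psme1 at 4.36 (at most 4.15), and the lowest in Tap1 at -2.97 (others at least -2.01). The same animal was a high outlier in 1854 and a low outlier in 1964 of 18600 genes. Exposed animal 2 was the lowest in Ifit2 at -3.81, with the other exposed animals between -3.15 and -2.82.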

How the results depend on the processing

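In each setting run, 0 genes passed an adjusted p of 0.05, with the smallest adjusted p from limma at 0.9996 as reported and 0.249 with array weights. Genes at an unadjusted p under 0.05 numbered 636, 295 within slide 4 and 2369 (12.7%) with array weights, and between 472 (without sham animal 7) and 1549 (without sham animal 6) with 1 animal left out; without exposed animal 3 they numbered 990. Members at that threshold numbered 1 (Bst2), 0 within slide 4 or slide 3, 0 once slides were a term of the model and 3 with array weights (Irf1, Stat2 and Tap2). With 1 animal left out they numbered between 0 and 3. They numbered 0 without sham animal 1, sham animal 8 or exposed animal 1, 2 or 4. They numbered 1 without sham animal 5 (Oas2 in place of Bst2), 2 without exposed animal 3 (Ifitm3 and Bst2) and 3 without sham animal 6 (Bst2, Tap1 and Tap2). The median difference was -0.41 for the effectors and -0.19 for the proteasome and Tap genes within slide 4, and -0.18 and -0.13 there without sham animal 8. With 1 animal left out it lay between -0.15 and 0.02 for the effectors, and between -0.05 and 0.004 for the proteasome and Tap genes.

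Signs turned as follows, in differences that did not pass the test. Within slide 3, Oas1b was 0.030, Isg15 0.25, Rsad2 0.18, Ifi44 0.00079 and Psme1 0.017. Within slide 4, Ifit3 was -0.42, Oas1a 0.39, Ifi27 -0.32, Irf7 -0.43 and Tap1 0.11. With array weights, Ifit3 was -0.14, Ifi27 -0.028, Irf7 -0.11 and Psme1 0.0052, and Psme1 was also 0.0091 with quantile normalization and in the authors' deposited table. With 1 animal left out, Ifit3 ran from -0.070 to 0.23, Oas1a from -0.57 to 0.040, Isg15 from -0.23 to 0.17, Rsad2 from -0.24 to 0.14, Ifi27 from -0.075 to 0.090 and Psme1 from -0.054 to 0.035. The correlation of Psmb9 with Tap1 was 0.34 without the 2 farthest animals. The cause was not tested. Leaving out sham animal 8, or sham animals 6 and 8, from the correlations, and sham animal 8 within slide 4, was chosen after the data were seen. No paired analysis was possible because the labels number no replicates.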

Other observations

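Of the 46 genes in which Dixon's test set sham animal 8 above its group, 28 had a symbol. Among these, 6 were members and 3 were further interferon-stimulated genes: Rtp4, Dtx3l and Cmpk2. Rtp4 stood at -0.25 in this animal, against at most -1.62 in the other sham animals, and Dtx3l at -4.92, against at most -5.79. The remaining 37 of the 46 were on no list. Those named here were picked after their values were seen. They included Apol9a at -0.28 (others at most -1.37), Ly6e at 1.42 (at most 0.83) and Ifi27l2b at 3.91 (at most 3.02). They also included Hes2 at -3.97 (at most -4.86), Cyp2b2 at 1.61 (at most 1.06) and Dgat1 at 2.30 (at most 2.16). The largest excess of the 46 belonged to a gene without a symbol, at -1.42 (at most -4.90).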
